A study of Homo sapiens with 18 samples.

Results

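Clone 16F8 is an HCT116 colorectal carcinoma line that was targeted at IDH1 but does not express the mutant allele, and its gene expression was compared here with that of the parental HCT116 line. The members were chosen by the sample titles: the 2 arrays of 16F8 and the 2 arrays of parental cells, 4 of the 18 arrays in the series, with all 42892 of 54675 probe sets that carry a gene symbol. The series measured 9 isogenic HCT116 lines in 2 biological replicates each on one-colour Affymetrix arrays. They are the parental line and its targeted clones, and counts of 9 clones below include the parental line. The title of the series names IDH mutations and the epithelial-mesenchymal transition, in which epithelial cells take on mesenchymal traits.

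Parental cells are wild-type at both genes. 16F8 is a single clone whose title gives IDH1 R132C/+, while its labels give wild-type IDH at the mRNA level. The other 7 clones carry an expressed mutant allele: 2C11 and 2H1 have IDH1 R132H/+, 3A4 has IDH1 R132C/+, 8G12 and 17H5 have IDH2 R140Q/+, and 47C2 and 45G3 have IDH2 R172K/+. Every culture was grown for 6 days with no treatment. Since each genotype of the comparison is 1 line, the tests compare 1 clone with the parental line, and the p-values measure the spread between cultures of a clone. In bulk RNA, fewer expressing cells and less RNA per cell cannot be told apart.

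IDH1 encodes the cytosolic enzyme that oxidises isocitrate to 2-oxoglutarate and makes NADPH, and IDH2 is its mitochondrial counterpart. Mutant forms reduce 2-oxoglutarate to 2-hydroxyglutarate. Several general programmes recur in the results below. ATF4 is the transcription factor of the integrated stress response; it is made when cells lack amino acids or carry unfolded proteins, and it binds C/EBP-ATF response elements in front of genes of amino acid transport and synthesis. E2F factors drive the genes that cells need to enter S phase and copy their DNA. SREBP factors drive genes of sterol and fatty acid synthesis. Isolating a clone means growing a line from a single cell after targeting.

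5 promoter stretches are shown because they belong to genes at both ends of the comparison and hold letters that fit the ATF4 or E2F motifs. They are RefSeq sequences on GRCh38.p14, read 5′ to 3′ on the gene's strand, and all end at the last base before the annotated start. CHAC1 (a glutathione-degrading enzyme; chr15:40953221-40953470, + strand) and ASNS (asparagine synthetase; chr7:97872409-97872508, - strand) were lower in 16F8, and their capitals mark the match to the C/EBP-ATF letters TGATGNAAN on either strand. CDC25A (a phosphatase that activates cyclin-dependent kinases; chr3:48188418-48188517, - strand), E2F2 (chr1:23531234-23531333, - strand) and GINS2 (a subunit of the replicative helicase; chr16:85688955-85689054, - strand) were higher, and their capitals mark the E2F letters TTTGGCGC or TTTCCCGC on either strand.
CHAC1: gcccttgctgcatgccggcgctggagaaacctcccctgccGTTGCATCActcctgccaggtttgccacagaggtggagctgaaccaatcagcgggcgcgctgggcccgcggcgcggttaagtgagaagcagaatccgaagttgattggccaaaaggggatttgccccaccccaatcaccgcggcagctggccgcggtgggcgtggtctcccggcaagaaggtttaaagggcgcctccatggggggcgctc
ASNS: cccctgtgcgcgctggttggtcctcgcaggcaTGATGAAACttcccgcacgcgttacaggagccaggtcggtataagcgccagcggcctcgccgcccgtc
CDC25A: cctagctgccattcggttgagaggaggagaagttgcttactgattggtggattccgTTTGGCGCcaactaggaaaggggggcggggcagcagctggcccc
E2F2: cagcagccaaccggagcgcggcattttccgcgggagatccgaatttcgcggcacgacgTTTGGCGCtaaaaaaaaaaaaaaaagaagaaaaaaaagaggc
GINS2: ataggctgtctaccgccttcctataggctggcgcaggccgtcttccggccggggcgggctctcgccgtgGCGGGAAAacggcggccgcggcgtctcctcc

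The match lay 210 to 202 bases before the start in CHAC1 and 68 to 60 bases before it in ASNS. It lay 44 to 37 bases before the start in CDC25A, 42 to 35 in E2F2 and 31 to 24 in GINS2. A match of letters is a description of the sequence and not a measured binding site.

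The arrays were checked first. Log2 signals of all genes correlated at 0.989 between the 2 parental arrays and at 0.989 between the 2 arrays of 16F8, against 0.968 to 0.974 between a parental and a 16F8 array. A 16F8 array and an array of a mutant clone correlated at 0.959 to 0.990, so the highest of these values exceeded that between the 2 arrays of 16F8. The epithelial markers KRT18, KRT19, KRT8 and EPCAM gave strong signals in both lines (KRT18 3770 and 4766 in parental, 3011 and 3632 in 16F8). The intestinal markers CDX1, VIL1, LGALS4 and CEACAM5 were near 0, at no more than 8.1 in any of the 4 arrays, although the label gives a colorectal line. The intestinal markers CDX2 (41.9 and 41.4 in parental, 44.8 and 55.1 in 16F8) and KRT20 (44.9 and 37.5, 42 and 44.8) read higher than these. Markers of other cells were near 0 as well: 7 of 8 fibroblast markers, 6 of 6 haematopoietic markers and 4 of 4 endothelial markers lay under a signal of 25. The exception was COL1A1, a collagen chain, with 358.5 and 241 in parental and 345.1 and 227.2 in 16F8. Spiked poly-A controls, which are added to the RNA before labelling, were higher in replicate 1 of parental and of 16F8 and in 2 further arrays of the series, and their part in the results was tested only by leaving those arrays out or by a term in the fit.

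The transcripts of IDH1 itself were lower in 16F8. The main IDH1 probe set read 1694 and 2008 in parental and 1036 and 1212 in 16F8, a log2 difference of -0.72 ± 0.12 (standard error; adjusted p = 0.000357, limma). Both 16F8 arrays lay below both parental arrays, and the mean of 16F8, 1124, was the lowest of the 9 clones, whose other means ran from 1330 to 2190. Against the mean of the 7 mutant clones the log2 difference was -0.49 ± 0.09 (adjusted p = 0.0025, limma). The 2 other IDH1 probe sets were lower too, one at 1572.9 and 1971.7 against 1027.6 and 1161.7 and a dim one at 24.5 and 17.8 against 10.5 and 11. These probe sets do not separate the alleles, so the level is that of all IDH1 transcripts.

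The neighbours of IDH1 on chromosome 2 showed 1 call in each direction. Of the 10 genes on each side, 10 passed the filter and their median log2 difference was -0.02. Over all genes tested, 12.4% were called higher and 9.57% lower. FZD5, a Wnt receptor, was higher (0.54 ± 0.11, adjusted p = 0.0018, limma) and MAP2, a microtubule protein, was lower (-0.64 ± 0.18, adjusted p = 0.014, limma).

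IDH2 gave no single answer. Its main probe set read 152.6 and 101.7 in parental and 123.8 and 120.7 in 16F8 (-0.03 ± 0.21, adjusted p = 0.944), while the second read 60.1 and 68.3 against 124.5 and 132.7 (0.98, adjusted p = 0.0016, limma). Among the 10 tested isocitrate and 2-hydroxyglutarate dehydrogenases, PHGDH, the first enzyme of serine synthesis, was lower as well. PHGDH read 1467 and 1165 in parental and 397.3 and 437.3 in 16F8 (-1.64 ± 0.14, adjusted p = 3.58e-07, limma). IDH3B, a subunit of the NAD-dependent enzyme, was higher (0.48 ± 0.14, adjusted p = 0.0218, limma), a call that was lost without parental replicate 2 (0.42, adjusted p = 0.134), without 16F8 replicate 1 (0.53, adjusted p = 0.0545) and without 16F8 replicate 2 (0.44, adjusted p = 0.116). Of 14 genes of the TCA cycle 3 were higher and 0 lower, beside 12.4% and 9.57% of all genes. Their median was 0.06, and between 0 and 4 were higher over the alternatives.

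16F8 and parental cells differed in many genes, by modest amounts at the high end and by large ones at the low end. Of 12541 genes tested, 2760 (22%) passed an adjusted p of 0.05, 1560 (12.4%) higher and 1200 (9.57%) lower in 16F8. The median size among them was 0.61 on the log2 scale. Past a log2 difference of 1 there were 202 genes higher and 311 lower, and past 2 there were 5 higher and 55 lower. The 2 arrays of a clone did not overlap with those of the other in any of the 2760 genes, against 56.8% of all genes tested. The median over all tested genes was 0.02, and the medians of the chromosomes from 1 to 22 and X lay between -0.03 (chromosome 13) and 0.10 (chromosome 22).

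Among the runs that left out 1 array, the count moved most without parental replicate 2, to 1577 genes with 768 higher and 809 lower. Without 16F8 replicate 2 it was 1692, with 955 higher and 737 lower, without 16F8 replicate 1 it was 1919, with 989 higher, and without parental replicate 1 it was 2339.

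**Figure D1:**
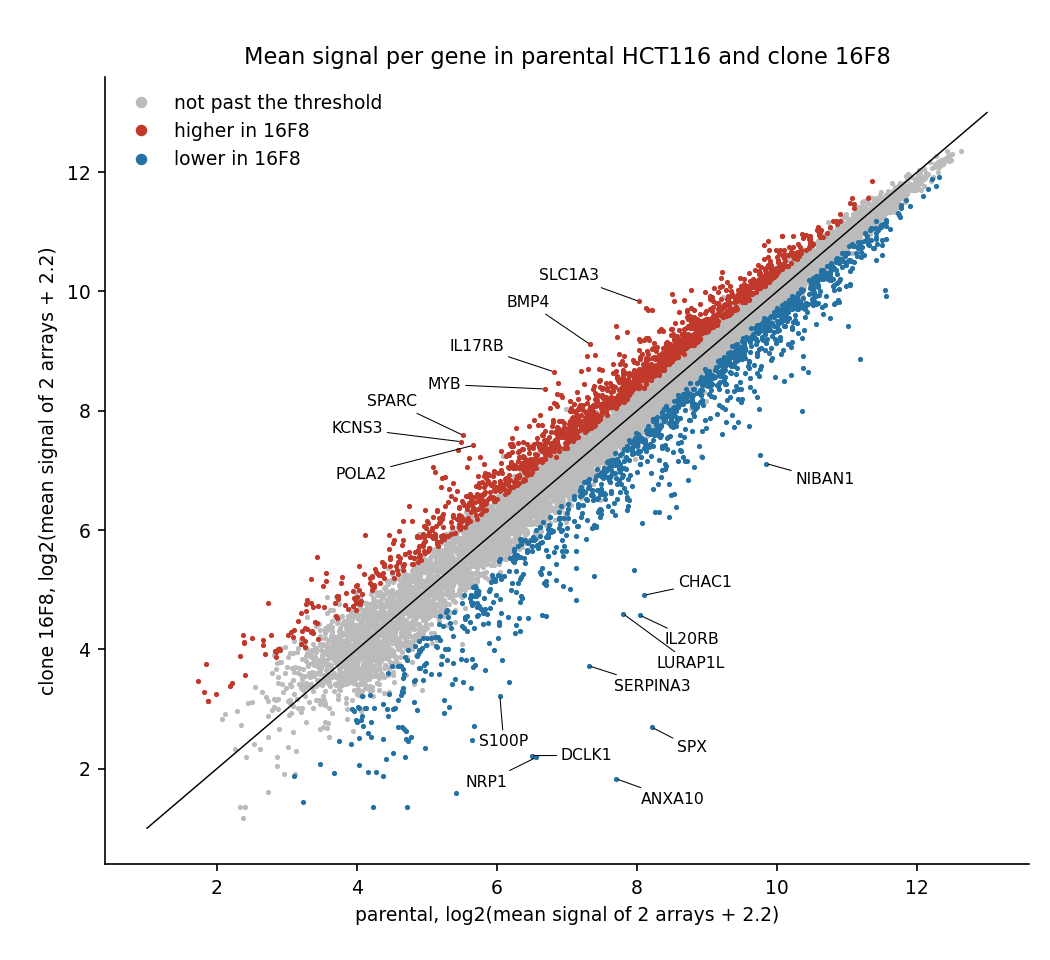
Mean signal of each tested gene in parental cells (x axis) and in 16F8 (y axis), both as log2 of the mean of 2 arrays plus 2.2; the line marks equal signal, and red and blue points passed an adjusted p of 0.05 (genes of the Y chromosome are not drawn). The blue points reach much farther from the line than the red ones, with ANXA10, SPX, NRP1 and DCLK1 farthest below it.

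The lowest genes were nearly silent in 16F8. ANXA10, a member of the calcium-binding annexins, read 243.3 and 169.6 in parental and 2.7 and 0 in 16F8, a log2 difference of -5.97 ± 0.78 (adjusted p = 3.89e-05, limma). SPX, the precursor of the peptide hormone spexin, read 312 and 278.4 against 4.7 and 3.8 (-5.53 ± 0.26, adjusted p = 4.04e-10). Both genes separated the lines by far more than the spread between the 2 arrays of either line. The 2 arrays of mutant clone 45G3, however, read 2.6 and 77.1 for ANXA10. Both genes were also low in most mutant clones, with clone means of 1.15 to 120.2 for ANXA10 and 3.3 to 48.15 for SPX.

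NRP1, a co-receptor for semaphorins and VEGF, read 103.2 and 80.6 in parental and 4.1 and 0.6 in 16F8 (-4.47 ± 0.27, adjusted p = 1.18e-08, limma). DCLK1, a microtubule-associated kinase, read 90.8 and 85.1 against 3.3 and 1.6 (-4.30 ± 0.20, adjusted p = 4.04e-10). The means of the mutant clones ran from 8.55 to 710.4 for NRP1 and from 10.5 to 698.4 for DCLK1. The lowest of these means and the signals of 16F8 lay below the medians of the arrays (12.3 to 15.6), where levels have no order.

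The other 8 of the lowest 12 differed in their roles. SERPINA3, the protease inhibitor alpha-1-antichymotrypsin, went from 183.9 and 130.3 to 11.3 and 10.7 (-3.57 ± 0.31). IL20RB, a receptor subunit for cytokines of the IL-20 family, went from 299 and 222.4 to 15.1 and 28.1 (-3.51 ± 0.26). SLPI, an inhibitor of leukocyte proteases, went from 283.7 and 207.3 to 32.6 and 43 (-2.63 ± 0.24). S100P, a calcium-binding protein, gave -2.79 ± 0.36, the non-coding RNA LINC02806 -2.74 ± 0.34 and LURAP1L -3.22 ± 0.22. S100P read 79.2 and 48.1 in parental and 6.5 and 7.7 in 16F8, and it passed the filter only through the parental arrays. Its lower call is therefore not independent of the filter. CHAC1 and NIBAN1, both known from stress responses, gave -3.22 ± 0.27 and -2.73 ± 0.17, NIBAN1 from 976.1 and 860 to 141.8 and 131.1. The adjusted p of these 8 genes was at most 3.84e-05 (limma, S100P).

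The 12 highest genes were taken among those with an official symbol, no overlap and a mean signal of at least 50 in the higher clone. They rose between 3.2-fold and 4.21-fold, a far narrower range than the 12 lowest. Over all tested genes outside chromosome Y the largest log2 difference was 2.17. SPARC, a secreted protein that binds collagen, read 46.8 and 40.4 in parental and 186.4 and 193.9 in 16F8 (2.07 ± 0.24, adjusted p = 1.05e-05, limma). KCNS3, a modulatory potassium channel subunit, read 41.3 and 43.6 against 191.6 and 161.6 (2.00 ± 0.16, adjusted p = 3.03e-07). SLC1A3, a transporter of glutamate and aspartate, read 260 and 257.5 against 964 and 858.4 (1.81 ± 0.10, adjusted p = 3.38e-09). SLC1A3 was higher in 16F8 than in all 14 arrays of mutant clones, whose clone means ran from 142.8 to 700.9.

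BMP4, a ligand of the TGF-beta superfamily, read 181.4 and 135.9 in parental and 475.3 and 627.7 in 16F8 (1.78 ± 0.16). MYB, a transcription factor of progenitor cells, read 94.7 and 106.1 against 297.6 and 357.5 (1.68 ± 0.17). POLA2, the regulatory subunit of DNA polymerase alpha, read 47.8 and 48.4 against 161.3 and 176.2 (1.76 ± 0.12). The remaining genes of the highest 12 were PRIMA1, which anchors acetylcholinesterase (1.91), the interleukin receptor IL17RB (1.87), SKIDA1 (1.86), ZCCHC12 (1.81), the GABA receptor subunit GABRQ (1.68) and NRG1, a ligand of ERBB receptors (2.00). The adjusted p of the 12 was at most 0.00011 (limma, NRG1).

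Other probe sets bear on 10 of these 24 genes. 15 further probe sets passed the filter, and 13 had the same direction as the main one. NRG1 is the uncertain gene: 1 of its 3 other probe sets had the same direction, and their differences ran from -0.80 to 0.67. The IL17RB probe set is of the type that can bind related transcripts. Those of JUN, CXCL2, CXCL8, FOXM1, HSD17B7 and KRT18, named in other paragraphs, are of this type too. Among them, CXCL2, FOXM1, HSD17B7 and KRT18 had no other probe set past the filter. In dim genes the size also depends on the offset of 2.2 added before the logarithm: with an offset of 50 the difference was -2.31 for ANXA10, -2.67 for SPX, -1.44 for NRP1 and -1.40 for DCLK1. The difference shrank more than 1.5-fold in this way in 19 of the 24 genes, and all 24 kept their call in every alternative run.

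**Figure D2:**
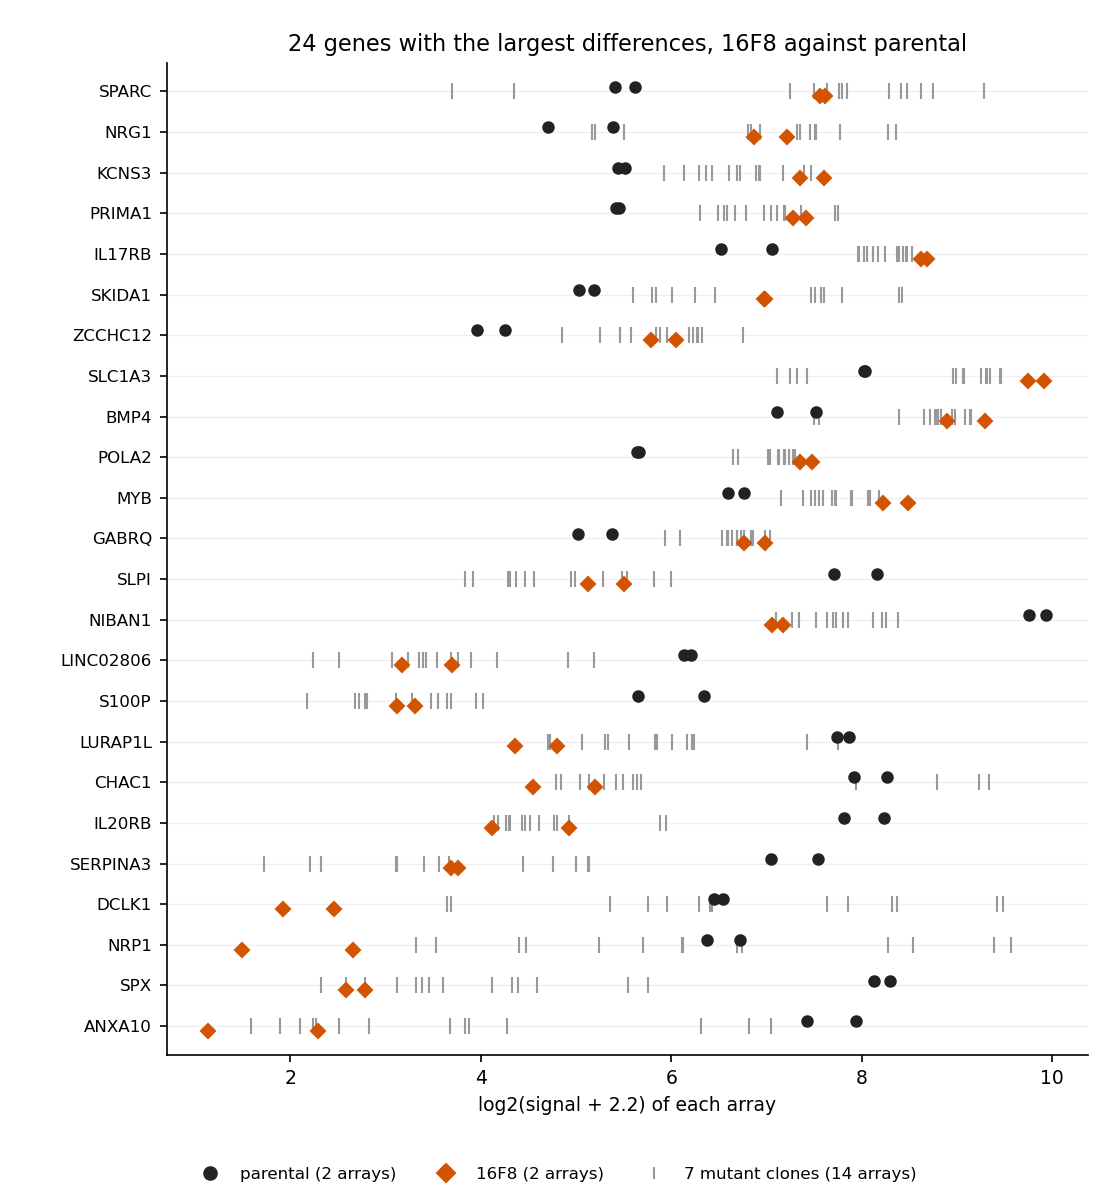
Log2 signal plus 2.2 of each array for the 12 highest and 12 lowest genes, with parental arrays as black circles, 16F8 arrays as orange diamonds and the 14 arrays of the mutant clones as grey ticks. The 2 parental arrays and the 2 arrays of 16F8 do not overlap in any row, which was a rule for choosing these genes. The grey ticks of the mutant clones spread widely in NRP1 and DCLK1.

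Genes of the ATF4 programme were lower in 16F8 as a group. Of 35 targets tested, 28 were lower and 0 higher, beside 9.57% lower and 12.4% higher among all genes. The counts of the further lists against parental are to be read beside these same shares. The median of the ATF4 list was -0.88 against 0.02 for all genes. Replicate 1 of 16F8 against replicate 1 of parental gave a median of -0.84, and replicate 2 gave -0.92. The list held 21 lower members without 16F8 replicate 1, the fewest over the alternatives, and 32 at most.

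The lower genes covered stress regulators, amino acid transport and amino acid synthesis. TRIB3, a pseudokinase that feeds back on ATF4, read 846.8 and 887.3 in parental and 150.9 and 151.2 in 16F8 (-2.50 ± 0.16, adjusted p = 1.44e-08, limma). DDIT3, which encodes the stress transcription factor CHOP, read 423.6 and 324.1 against 92.2 and 70.3 (-2.17 ± 0.17, adjusted p = 1.32e-07). SLC7A11, the cystine transporter, read 2272 and 2368 against 439.1 and 488.2 (-2.32 ± 0.13, adjusted p = 2.67e-09). In each of these 3 genes the higher 16F8 array lay far below the lower parental array.

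PCK2, mitochondrial phosphoenolpyruvate carboxykinase, read 1386 and 1233 in parental and 251.2 and 252.2 in 16F8 (-2.37 ± 0.11, adjusted p = 4.04e-10, limma). CHAC1 read 239.9 and 306.1 against 21.1 and 34.5, and NUPR1, a small stress-induced nuclear protein, fell by 2.01 ± 0.25 (adjusted p = 2.66e-05). ASNS, named here for its promoter after its values were seen, fell by 1.51. ATF4 itself, which is controlled mainly at translation, gave -0.31 and did not pass the threshold, and CBS gave 0.84 and did not pass it either.

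The aminoacyl-tRNA synthetases, which load tRNAs with amino acids and include several ATF4 targets, were lower in part. Of 17 tested, 9 were lower and 1 higher, with a median of -0.33. WARS1 read 989.4 and 930.7 in parental and 471.8 and 449.2 in 16F8 (-1.06 ± 0.11), and AARS1 read 1808 and 1792 against 852.3 and 910.9 (-1.03 ± 0.09). SARS1 gave -1.03 ± 0.10 and GARS1 -0.71 ± 0.09, while FARSA was higher at 0.60 ± 0.11 (adjusted p = 0.000813, limma). With the probe set of highest variance for each gene, 5 of the list were lower.

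Of 19 endoplasmic reticulum chaperones and targets of XBP1 or ATF6, 8 were lower and 1 higher, with a median of -0.22. DNAJB9, a chaperone co-factor, read 732.4 and 973.3 in parental and 367.7 and 393.3 in 16F8 (-1.15 ± 0.15), and HERPUD1, a part of the degradation machinery, read 1809 and 1842 against 907.6 and 888.4 (-1.02 ± 0.11). HYOU1, a large chaperone, gave -0.86 ± 0.12 (adjusted p = 6.46e-05, limma). The chaperones HSP90B1, PDIA3, PDIA6 and CALR, chosen after their values were seen, lay between -0.06 and -0.01 and did not pass the threshold.

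The p53 targets showed members on both sides, with 6 of 25 higher and 4 lower, beside 12.4% and 9.57% of all genes. Their median was 0.01. The largest falls were in SESN2 (-1.96 ± 0.20), a sensor of leucine, and GDF15 (-1.48 ± 0.16), a secreted stress hormone. Both are also in the ATF4 list. SESN1 rose by 0.88 ± 0.13 (adjusted p = 0.000158, limma). Without 16F8 replicate 1 the higher members fell to 2, and with the 4 arrays alone to 1.

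Genes of DNA replication were higher in 16F8. Of 35 genes of replication and entry into S phase, 30 were higher and 1 lower, with a median of 0.83, and the medians in the replicate pairs were 0.74 and 0.91. The lowest count of higher members over the alternatives was 26, without 16F8 replicate 2. CDC25A read 177.5 and 156.2 in parental and 473.6 and 498.7 in 16F8 (1.53 ± 0.13, adjusted p = 3.98e-07, limma). GINS2 read 481 and 389.8 against 1029 and 1040 (1.25 ± 0.13, adjusted p = 3.13e-06). Both arrays of 16F8 lay above both parental arrays by more than the spread within a clone.

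CCNE2, cyclin E2, read 212.6 and 211.2 in parental and 511 and 477.8 in 16F8 (1.21 ± 0.13), and POLE2, a subunit of DNA polymerase epsilon, read 361.3 and 449.8 against 857.9 and 996.8 (1.19 ± 0.11). E2F2 read 316.2 and 274.5 against 797.2 and 847.1 (1.47 ± 0.11, adjusted p = 9.02e-08, limma), and its probe set of highest variance gave 0.76 (adjusted p = 0.186). E2F1 read 58.1 and 84 against 110.6 and 224.9 (1.15 ± 0.33, adjusted p = 0.0195), and its call was lost without parental replicate 1 (0.89, adjusted p = 0.137) and without 16F8 replicate 2 (0.65, adjusted p = 0.251). The lower member was CDKN2A, which encodes inhibitors of the cell cycle, at -0.48.

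The genes of mitosis differed less. Of 30 tested, 12 were higher and 0 lower, with a median of 0.25. FOXM1, a transcription factor of the G2 phase, gave 0.66 ± 0.14, BUB1B, a checkpoint kinase, 0.63 ± 0.09 and the motor protein KIF11 0.56 ± 0.09 (largest adjusted p = 0.0030, limma, FOXM1). Without parental replicate 2 the count of higher members was 6. Among 21 genes of DNA methylation and Polycomb machinery, 6 were higher and 3 lower, beside 12.4% and 9.57% of all genes. Their median was 0.09. HELLS, a remodeller that acts with DNA methylation, gave 1.02 ± 0.11 (1.69 with its probe set of highest variance) and CBX2, a Polycomb subunit, 1.04 ± 0.21, which was 0.62 without 16F8 replicate 2. KDM6B, a demethylase of histone H3 lysine 27, was lower at -1.27 ± 0.15. With the 4 arrays alone 3 of that list were higher and 1 lower.

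Sequence letters in front of the genes were counted in RefSeq windows of 300 bases, 250 before and 50 after the start, which were listed for 10234 (81.6%) of the tested genes. The E2F letters stood in 17 of 26 windows of the higher replication genes (65.4%), against 367 of all 10234 (3.59%), 98 of 1298 windows of genes higher in 16F8 (7.55%) and 16 of 975 of genes lower (1.64%). The C/EBP-ATF letters stood in 5 of 24 windows of the lower ATF4 targets (20.8%), against 185 of 10234 (1.81%), 46 of 975 of genes lower (4.72%) and 22 of 1298 of genes higher (1.69%). The SREBP letters TCACNCCAC stood in 0 of 12 windows of the higher sterol genes and in 1.03% of all. Over all 27305 windows of the RefSeq table the shares were 2.31% for E2F, 3.67% for C/EBP-ATF and 1.15% for SREBP. Many of the listed genes are textbook targets of these factors, so the shares describe the lists and are no independent support.

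Genes of sterol and fatty acid synthesis were higher in 16F8. Of 24 tested, 14 were higher and 1 lower, with a median of 0.53, and between 11 and 18 were higher over the alternatives. INSIG1, which retains SREBP in the endoplasmic reticulum and is itself an SREBP target, read 568.2 and 612.3 in parental and 1214 and 1348 in 16F8 (1.11 ± 0.11, adjusted p = 2.32e-06, limma). MVK, mevalonate kinase, read 39.8 and 32.5 against 82.8 and 81.8 (1.15 ± 0.17, adjusted p = 0.00014). The 2 lines did not overlap in either gene, and the probe set of highest variance gave 1.81 for INSIG1.

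FASN, fatty acid synthase, read 152.4 and 173.5 in parental and 264.6 and 389 in 16F8 (0.97 ± 0.18), and HSD17B7, an enzyme of cholesterol synthesis, read 190.7 and 160.7 against 386.8 and 284.9 (0.91 ± 0.15). LSS, lanosterol synthase, gave 0.89 ± 0.12, and its probe set of highest variance gave 0.50 (adjusted p = 0.131, limma). ACSS2, which makes acetyl-CoA from acetate, was the lower member, with 218.6 and 214.2 against 107.7 and 107.7 (-0.99 ± 0.15, adjusted p = 0.000149, limma). SREBF1 and SREBF2, the genes of the SREBP factors, gave -0.47 and 0.22, and neither passed the threshold.

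Genes of hypoxia and glycolysis moved in a few members, with 7 of 32 higher and 1 lower, beside 12.4% and 9.57% of all genes. Their median was 0.11. BNIP3, a mitophagy receptor, read 837 and 863 in parental and 1375 and 1393 in 16F8 (0.70 ± 0.10), and PFKFB4, a regulator of glycolysis, gave 0.85 ± 0.18. The glucose transporter SLC2A1 gave 0.53 ± 0.09, or 0.94 with its probe set of highest variance (largest adjusted p of the 3 genes = 0.0024, limma). Without 16F8 replicate 1 the higher members numbered 4, and with quantile normalization 14. The NRF2 list, which covers antioxidant defence, had 4 of 24 members lower and 1 higher, with a median of -0.04. Its largest fall was SLC7A11, and the higher gene was AKR1C3, an aldo-keto reductase (1.14 ± 0.22). With the probe sets of highest variance 1 member of the NRF2 list was lower.

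Several signalling and defence lists were lower. Of 25 immediate early genes, which respond to growth factors within minutes, 15 were lower and 0 higher, with a median of -0.41. KLF4, a transcription factor of epithelial differentiation, read 633.8 and 704.7 in parental and 220.1 and 199.9 in 16F8 (-1.66 ± 0.12, adjusted p = 6.01e-08, limma). EGR3 gave -1.59 ± 0.28, FOSB -1.48 ± 0.22, ZFP36 -1.26 ± 0.16, ATF3 -1.16 ± 0.13 and JUN -1.12 ± 0.21. The list had 9 lower members without parental replicate 2, without 16F8 replicate 2 and with the 4 arrays alone.

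Of 18 NF-kB and inflammatory genes, 10 were lower and 0 higher, with a median of -0.69. LCN2, an iron-binding protein of epithelial defence, read 407.3 and 328.8 in parental and 106.3 and 83.9 in 16F8 (-1.93 ± 0.18, adjusted p = 1.22e-06, limma). The chemokine genes CXCL8 and CXCL2 gave -1.32 ± 0.16 and -1.26 ± 0.22. The count depended on single arrays and was 5 or 6 when any 1 of the 4 was left out. Among 26 genes of the interferon response and antigen presentation, 6 were lower and 1 higher, with a median of -0.28 and 4 to 16 lower over the alternatives. ISG20, an RNA exonuclease, gave -1.46 ± 0.23, IFIH1, a sensor of double-stranded RNA, -1.38 ± 0.17 and IFITM1 -1.25 ± 0.25. The higher gene was OAS3 (0.66 ± 0.12), which turned to -0.10 (adjusted p = 0.856, limma) with its probe set of highest variance.

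Wnt targets showed a few higher members, 4 of 17 with 0 lower, beside 12.4% and 9.57% of all genes. Their median was 0.11. AXIN2, a feedback inhibitor of Wnt signalling, read 138.5 and 168.9 in parental and 492.2 and 473.7 in 16F8 (1.64 ± 0.18, adjusted p = 6.87e-06, limma). The other large difference was BMP4, and without 16F8 replicate 2 the list had 2 higher members. MYC and SOX9, 2 transcription factors of intestinal crypts on this list, gave -0.29 and -0.27, and neither passed the threshold. Among 13 genes of differentiated intestinal cells 2 were higher and 2 lower, beside the same 12.4% and 9.57% of all genes. CA2, a carbonic anhydrase, read 355.1 and 367.2 against 1008 and 987.8 (1.46 ± 0.09, adjusted p = 1.32e-08), and the mucin MUC13, a dim gene, read 26.4 and 22 against 5.8 and 0.8 (-2.42 ± 0.44, and -0.48 with an offset of 50).

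Among 16 genes of iron handling, 2 were higher and 4 lower, with a median of -0.11, against 12.4% and 9.57% of all genes, and without 16F8 replicate 2 there were 2 lower. SLC40A1, the iron exporter ferroportin, read 41.2 and 38.5 in parental and 9.7 and 8.5 in 16F8 (-1.90 ± 0.39), and STEAP3, a ferrireductase, gave 0.82 ± 0.15 (largest adjusted p = 0.0020, limma, SLC40A1). SLC40A1 had an adjusted p of 0.0541 without the 4 arrays with high poly-A controls. Of 9 cancer-testis genes, PRAME was higher (0.62 ± 0.11) and MAGEB1 lower. MAGEB1 lost its call when any of the 4 arrays was left out (adjusted p = 0.0625 to 0.102, limma).

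**Figure D3:**
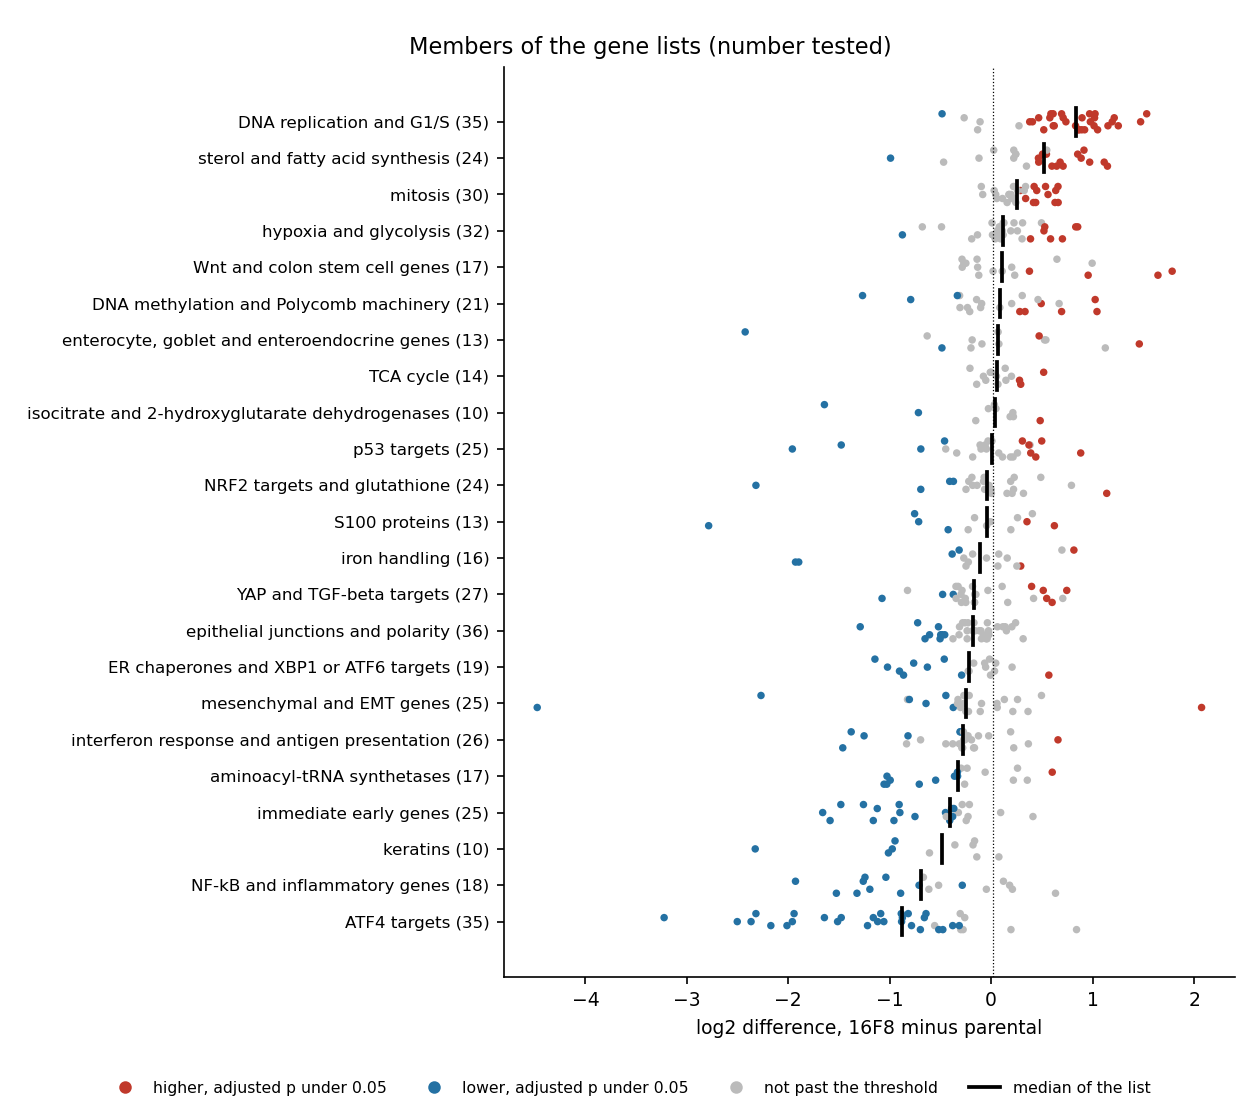
Log2 difference of 16F8 minus parental for every tested member of the gene lists, sorted by the median of the list (black bar); red and blue points passed an adjusted p of 0.05, and the dotted line marks the median of all genes. DNA replication and sterol synthesis stand at the top with medians of 0.83 and 0.53, and NF-kB and ATF4 targets at the bottom with -0.69 and -0.88.

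Some junction genes of epithelial cells were lower in 16F8. Of 36 genes of epithelial junctions and polarity, 9 were lower and 0 higher than in parental, with a median of -0.18. CDH1, E-cadherin, read 1527 and 1596 in parental and 1004 and 1045 in 16F8 (-0.61 ± 0.14, adjusted p = 0.0042, limma), and PPL, the desmosome-linked protein periplakin, read 426.2 and 359.1 against 161.3 and 155.9 (-1.29 ± 0.14). The count was 5 without parental replicate 2 and 5 without 16F8 replicate 1. CLDN7, a claudin of tight junctions, gave -0.65 ± 0.17 and lost its call without either of these arrays (adjusted p = 0.108 and 0.0626).

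Of 10 tested keratins, which form the filaments of epithelial cells, 4 were lower and 0 higher. KRT7 read 143.7 and 133.1 in parental and 22.4 and 29.7 in 16F8 (-2.33 ± 0.23, adjusted p = 2.07e-06, limma), and its probe set of highest variance gave -3.55. KRT23 read 711.2 and 653.9 against 368.7 and 307.5 (-1.01 ± 0.20), KRT15 gave -0.97 ± 0.16 and KRT80 -0.95 ± 0.16. KRT8 and KRT19 gave -0.18 and -0.16 and did not pass the threshold. KRT18 read 3770 and 4766 in parental and 3011 and 3632 in 16F8 (-0.36, adjusted p = 0.0548, limma). It passed with quantile normalization (0.00866), with the poly-A term (0.00182), without parental replicate 1 (0.0172) and without 16F8 replicate 2 (0.0388). Of 13 S100 proteins 2 were higher and 4 lower, with a median of -0.04, beside the same 12.4% and 9.57% of all genes. S100A11 gave -0.71 ± 0.15, and S100A2 0.62 ± 0.11.

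Some mesenchymal genes differed between 16F8 and parental, more of them lower than higher. Of 25 tested, 6 were lower, 1 (SPARC) was higher and 18 did not pass the threshold. Over all genes 9.57% were lower and 12.4% higher, and the median of the list was -0.25. VIM, vimentin, read 164.4 and 132.2 in parental and 83.3 and 83.4 in 16F8 (-0.81 ± 0.16, adjusted p = 0.0018, limma). TNC, tenascin C, was dim, with 15.9 and 22.5 against 1.5 and 3 (-2.27 ± 0.40, and -0.40 with an offset of 50). TNC passed the filter only through the parental arrays, with mutant clone means from 1.65 to 4.8. ZEB1, a repressor of epithelial genes, read 145.2 and 153.5 against 101.7 and 116.7 (-0.45 ± 0.15, adjusted p = 0.0369), and lost its call when any 1 of the 4 arrays was left out (adjusted p from 0.0531 to 0.206). With the probe set of highest variance 3 of the list were lower. YAP and TGF-beta targets had 5 of 27 higher (12.4% of all genes) and 3 lower (9.57% of all genes), with a median of -0.16, and without parental replicate 2 no member was higher. SKIL, a feedback inhibitor of TGF-beta signalling, gave -1.08 ± 0.18 (adjusted p = 0.000325, limma).

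16F8 was then set against the mutant clones, which are the targeted clones that express a mutant allele. The contrast of 16F8 minus the mean of the 7 mutant clones equals the difference between their changes from parental. Parental arrays do not enter the size of this difference, but they share in the fitted spread, the filter and the choice of probe set. It called 743 genes (5.92%), 402 higher (3.21%) and 341 lower (2.72%), and in 195 of them both 16F8 arrays lay outside the range of all 14 mutant arrays, as they did in 321 (2.56%) of all genes tested. Without 16F8 replicate 1 it called 250 genes and without 16F8 replicate 2 it called 314.

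Some epithelial genes were higher and some mesenchymal genes lower in 16F8 than in the mean of the mutant clones. Of the 36 junction genes 13 were higher and 1 lower, and of the 25 mesenchymal genes 0 were higher and 6 lower. Over all genes 3.21% were higher and 2.72% lower in this contrast. CDH1, at 1004 and 1045 in 16F8, had mutant clone means from 451.8 to 1309, and the difference was 0.56 ± 0.10 (adjusted p = 0.0027, limma). The CDH1 means of 8G12, 1040, and of 17H5, 1309, lay above the mean of 16F8. VIM, at 83.3 and 83.4, had mutant clone means from 89.15 to 391.2 (-1.45, adjusted p = 6.12e-07). ZEB1 gave -1.17 (adjusted p = 2.69e-06). Of the 27 YAP and TGF-beta targets 1 was higher and 10 lower.

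Keratin 23 lay between parental cells and most mutant clones. KRT23 was 1.95 higher on the log2 scale in 16F8 than in the mutant mean (adjusted p = 2.08e-07, limma), with mutant clone means from 33.45 to 525.5. LCN2 was 1.07 higher than the mutant mean (adjusted p = 7.25e-05), and S100A14, a calcium-binding protein of epithelia, 2.11 higher (adjusted p = 1.94e-08). These 3 genes were lower in 16F8 than in parental and higher than in the mutant mean, although S100A14 had an adjusted p of 0.0632 against parental without the 4 arrays with high poly-A controls.

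Among the genes in which both 16F8 arrays lay outside all 14 mutant arrays, the largest differences above the mutant mean were in FXYD3, GALNT3, GARIN5A, KLRC3 and FGFBP1. FXYD3, a regulator of the sodium pump, read 132.1 and 131.5 in 16F8 and 210.7 and 182.6 in parental, with mutant clone means from 9.95 to 102.8 (2.11 ± 0.13, adjusted p = 1.78e-08, limma). GALNT3, which starts O-glycosylation, read 182.4 and 157 in 16F8 and 260.8 and 323.1 in parental, with mutant means from 8.35 to 130.3 (1.87 ± 0.14, adjusted p = 1.53e-07). In FXYD3 and GALNT3 parental cells were higher still, and the same order held in GARIN5A and KLRC3 by their means (85.3 and 279 in parental, 55 and 233 in 16F8), without a call against parental. The lower 16F8 array of KLRC3, at 204.4, lay next to an array of 8G12 at 203.8, and KLRC3 belongs to a family of near-identical receptors whose transcripts its probe set may share.

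FGFBP1 differed from that order. This gene of a secreted carrier of fibroblast growth factors read 670.8 and 524.8 in 16F8, above the parental arrays at 243.6 and 171 and above all mutant clone means, which ran from 59.05 to 341.5. It was higher by 1.36 ± 0.11 against the mutant mean (adjusted p = 6.12e-07, limma) and by 1.53 ± 0.15 against parental (adjusted p = 2.43e-06).

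The largest differences below the mutant mean among such genes were in DCLK1, NRP1, GLIS3, ITGBL1 and ZNF350. DCLK1 gave -4.57 ± 0.15 and NRP1 -4.22 ± 0.21 against the mutant mean. ZNF350, a zinc finger repressor, read 9.4 and 12.9 in 16F8 and 42.9 and 55.9 in parental, and its mutant clone means were tight, from 46.7 to 70.45 (-2.27 ± 0.18, adjusted p = 2.08e-07, limma). ZNF350 was the gene of this set with near-equal levels in parental cells and the 7 mutant clones. ITGBL1, a secreted integrin-like protein, read 5.6 and 6.1 against 22 and 20 in parental (-2.33 ± 0.17 against the mutant mean). The lowest mutant clone for ITGBL1, 17H5, read 8.9 and 13.9. Signals of 16F8 and 17H5 thus lay near or below the array medians (12.3 to 15.6), where levels have no order. GLIS3, a zinc finger factor, read 29 and 24.4 against 43.9 and 49.4 (-2.35 ± 0.14). All 10 genes kept their call against the mutant mean in the 17 alternatives of that contrast, except that ITGBL1 was not tested where the filter used the mean over the 4 arrays of parental and 16F8.

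**Figure D4:**
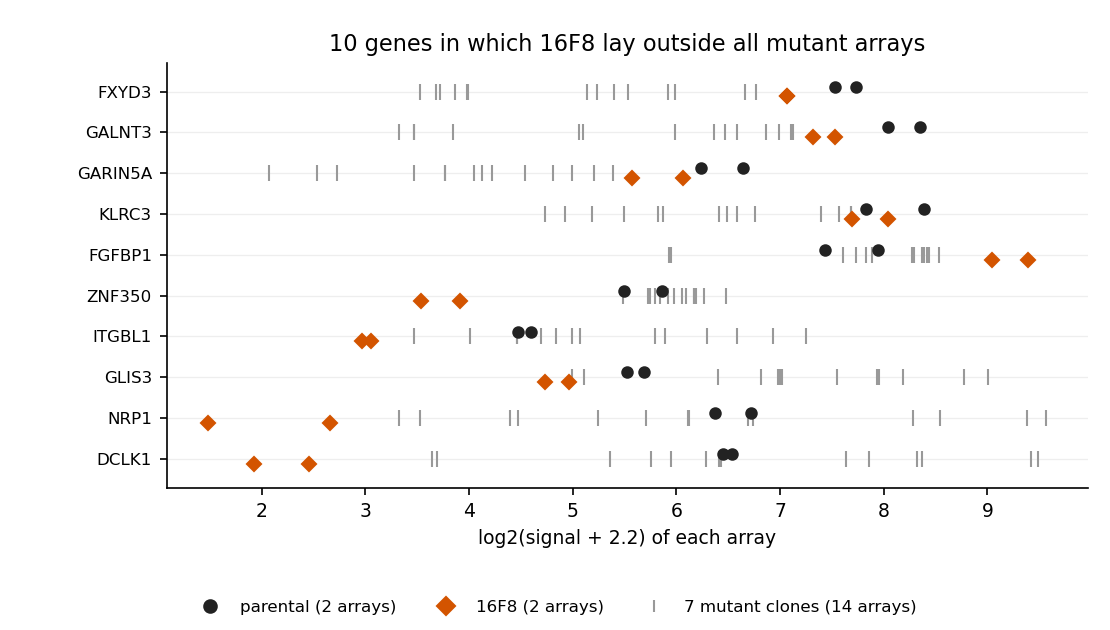
Log2 signal plus 2.2 of each array for the 10 genes in which both 16F8 arrays (orange diamonds) lay outside all 14 arrays of the mutant clones (grey ticks), with parental arrays as black circles. In the 3 uppermost rows both parental arrays lie above 16F8, in KLRC3 they overlap with it, and in FGFBP1 the 16F8 arrays lie above all others.

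The lists of ATF4 targets, NF-kB genes, replication and sterol synthesis are given for the other clones side by side. All of these values share the same 2 parental arrays, so a clone's value repeats whatever is particular to them. The ATF4 targets had a median of -0.88 in 16F8, of -0.85 to -1.10 in 2C11, 2H1, 3A4, 47C2 and 45G3, of -0.43 in 8G12 and of -0.09 in 17H5. In the contrast with the mutant mean 8 of the 35 ATF4 targets were lower in 16F8 and 0 higher, and that mean includes 8G12 and 17H5. Over all genes this contrast called 3.21% higher and 2.72% lower, and its counts for the other lists are to be read beside these shares. The NF-kB and inflammatory genes had a median of -0.69 in 16F8, of 0.12 in 17H5, of -0.12 in 3A4 and of -0.40 to -0.68 in the other mutant clones. The replication genes had a median of 0.83 in 16F8 and of 0.49 (17H5) to 0.94 (45G3) in the mutant clones. Against the mutant mean 1 of 35 was higher, close to the 3.21% of all genes. The sterol genes had 0.53 in 16F8, and -0.16 (3A4) to 0.55 (8G12) in the others, and against the mutant mean 7 of 24 were higher and 1 lower.

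The position of parental cells among the 9 clones can be given gene by gene. Among the 1560 genes higher in 16F8, the parental mean was the lowest of all 9 clones in 1136 (72.8%), and among the 1200 lower genes it was the highest in 845 (70.4%). Over all tested genes the parental mean was the lowest or highest of the 9 in 38.7%. The mean of 16F8 was the outermost in 21.4% of the higher and 20.8% of the lower genes, against 14.8% of all. These genes were chosen by the difference between the same 2 lines, and the choice favours an outer position of either.

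**Figure D5:**
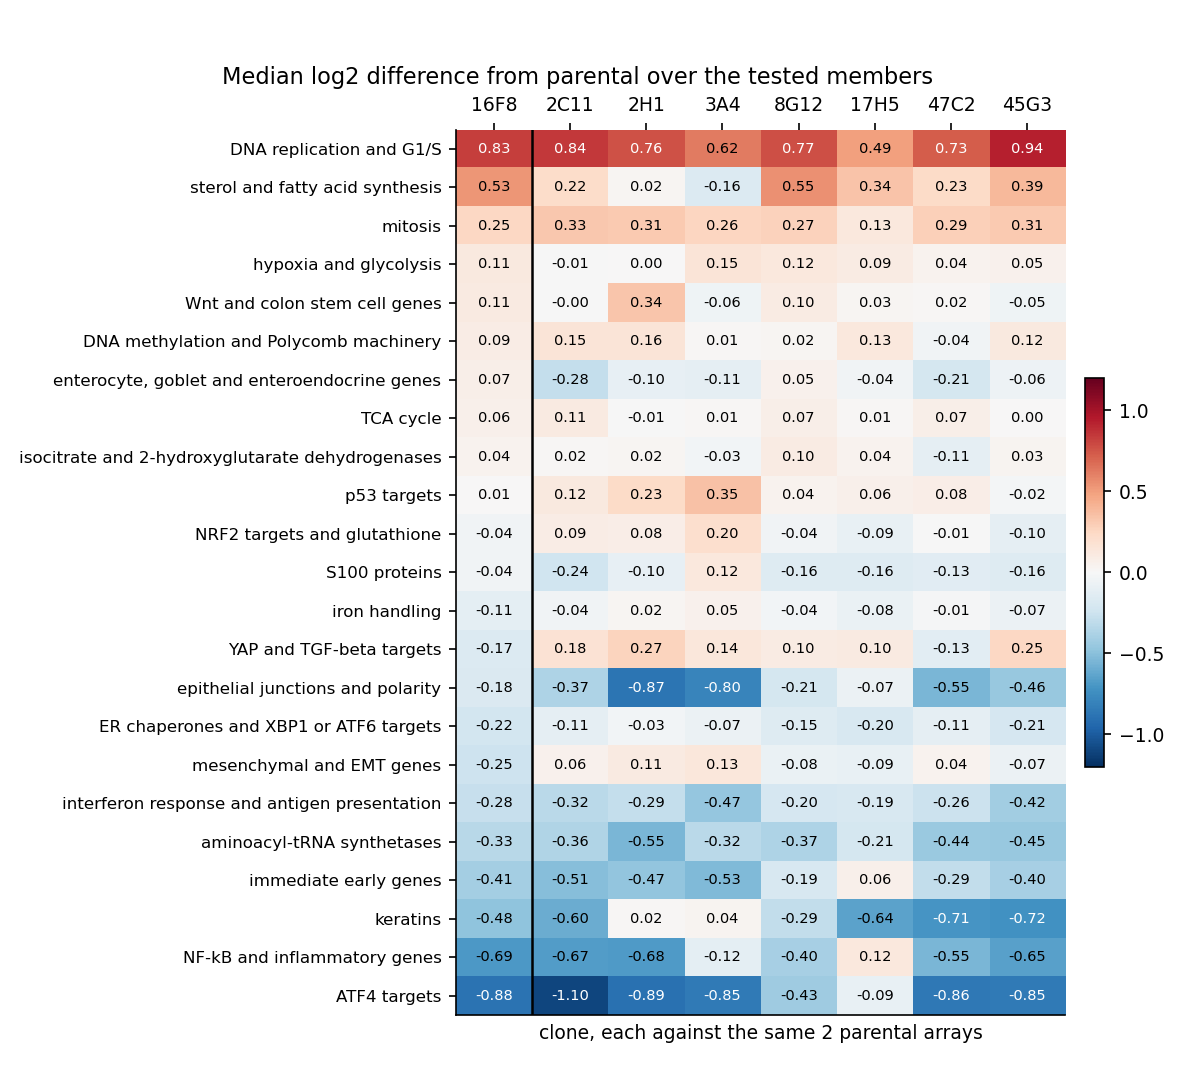
Median log2 difference from parental over the tested members of each list, for 16F8 (first column) and the 7 mutant clones, with the value printed in each cell (red higher, blue lower than parental). DNA replication is red and ATF4 blue in every column, with the ATF4 value of 17H5 at -0.09, and epithelial junctions range from -0.07 in 17H5 to -0.87 in 2H1.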

How the data were processed

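Total RNA of 18 cultures, 9 clones in 2 biological replicates, was amplified, labelled with biotin and hybridised to one-colour Affymetrix arrays. The deposited values are MAS5 signal intensities on a linear scale, per the submitters' processing notes; its version is not given in the sources used here. Trimmed array means were near 150.0 in each array. Of 54675 probe sets, 41091 carried 1 gene symbol in GEO's platform annotation, 1801 several and 11721 none, and 62 were controls; only those with 1 symbol were tested.

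After adding 2.2 (the lower quartile of the deposited values) and taking log2, the signals were fitted with limma 3.58.1 in R 4.3.3 as a mean per clone over the 18 arrays (9 residual degrees of freedom, eBayes with a trend), with two-sided p-values adjusted by Benjamini-Hochberg at 0.05. Probe sets had to reach the median of their array in both replicates of some clone, and the brightest such probe set stood for its gene, so that 12541 of 19775 genes were tested. A gene could thus enter only through the line in which it is high. A log2 difference understates the change of low genes. The contrasts were 16F8 minus parental and 16F8 minus the mean of the 7 mutant clones. Errors are standard errors. The number of arrays limits the precision. Scripts were tested on simulated data.

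The members, lists and tests were chosen with earlier results of these data known, so the lists are described by counts and medians. Genes named are IDH1 and IDH2; the 12 highest and 12 lowest past the threshold, without overlap and with a mean signal of at least 50 in the higher clone; up to 6 members of each list by size; and the 5 highest and 5 lowest against the mutant clones whose arrays lay outside all mutant arrays. Others are named after their values were seen. Genes of chromosome Y were in the counts and are not reported singly. As alternatives, the offset, filter, normalization, choice of probe set and variance model were changed, a replicate block or a poly-A term was added, and each array was left out. Promoters came from RefSeq (GRCh38.p14). Figures used Python 3.11.15 and matplotlib 3.10.9.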

Additional observations from a re-analysis of the deposited data

How the results depend on the processing

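The 24 genes named for 16F8 against parental kept their call and direction in every alternative run. Of 143 named genes past the threshold, 95 kept their call in every alternative and 48 lost it in at least 1. The count of genes called was 2760, with 1560 higher and 1200 lower. It rose to 4386 (2441 higher, 1945 lower) when every probe set was tested, where the contrast with the mutant clones called 1158, and fell to 1583 (815 higher, 768 lower) with the 4 arrays of parental and 16F8 alone. Leaving out 1 array gave 1577 to 2339 genes called, 768 to 1436 higher and 737 to 930 lower, and 250 to 314 against the mutant clones. Without the 4 arrays with high poly-A controls, an alternative chosen after seeing the data that leaves 1 array of each clone, assumed to vary like the other clones, the counts were 1728 (984 higher, 744 lower) and 267. The cause of these moves beyond fewer arrays or more probe sets was not tested. With the probe set of highest variance, 3 genes turned: OAS3 to -0.10, MUC1 to -0.50 and PCBP2 to 0.26.

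Over 36 pairs of clones the deviations of same-numbered arrays correlated at -0.353 to 0.383, so the numbers were not taken as pairs in the fit; parental and 16F8, whose replicate 1 arrays both have high poly-A controls, had the highest value, 0.383. With the replicate block the 18 arrays called 2766 genes and 746 against the mutant clones, and the 4 arrays alone called 4756 (2564 higher, 2192 lower) with 1 residual degree of freedom. Array medians were 12.3 to 15.6, and 15.4% of signals lay under 1, so levels near 0 have no order.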
